A study of Homo sapiens with 6 samples.

Results

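The 39 genes described here encode the proteins that carry glucose into the cell, break it down to pyruvate and lactate, and adjust that flow to the oxygen supply. They were taken by name from a list of glucose and lactate transporters, glycolytic enzymes, hypoxia-inducible transcription factors (HIF) and known HIF targets. The rule itself uses no measured value, but the genes were chosen with earlier results of these data known. Each name matched 1 of the 60708 genes in the count tables. All libraries came from U2OS, an established human osteosarcoma cell line grown in standard culture medium, and no oxygen condition is given in the labels. In 3 libraries the cells had been kept for 4 days in the solvent DMSO, and in 3 libraries for 4 days in 25 µM PDD00017273. This compound blocks PARG, the glycohydrolase that takes poly(ADP-ribose) chains off proteins. These groups are called DMSO and PARGi. The series calls its replicates biological. The labels do not say whether they were grown as separate cultures, so the p-values measure the spread between these libraries.

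Glycolysis turns glucose into pyruvate and yields a small amount of ATP without oxygen. Hexokinase and phosphofructokinase control entry into the pathway, and lactate dehydrogenase with the lactate carriers disposes of the end product. When oxygen is low, prolyl hydroxylases no longer mark the HIF alpha subunits for destruction, and stabilised HIF raises the transcription of glucose transporters, most glycolytic enzymes and a set of genes for pH control, mitophagy and collagen maturation. Many tumour lines run glycolysis at a high rate in air.

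The response of these genes to PARGi was small and went both ways. Of the 39 genes, 38 had enough counts to test, 12 were higher in PARGi and 6 were lower, and 20 did not pass the test (edgeR's quasi-likelihood test, Benjamini-Hochberg adjusted p under 0.05 over all 20409 genes tested). Over all genes tested, 24.3% passed in either direction, 13.2% as higher and 11.0% as lower, against 47.4%, 31.6% and 15.8% of the 38. More abundant genes passed more often, so the same was read among genes with a mean of at least 10 counts-per-million (CPM, scaled between libraries by TMM): there 35.7% of 10143 genes passed, 22.1% as higher and 13.6% as lower. Of the 29 listed genes at that level, 16 passed (55.2%), 12 as higher and 4 as lower. The median log2 fold change of the 38 genes was 0.023, beside -0.007 for all genes tested; at 10 CPM or more it was 0.037 for the 29 listed genes and 0.018 for all. With upper-quartile scaling in place of TMM the median of the 38 was -0.0015. Their single values ran from -0.52 for ALDOA to 0.37 for HK2. The 3 libraries of each group did not overlap for 18 of the 39 genes, and for 38.0% of all genes tested. At 10 CPM or more they did not overlap for 17 of the 29 listed genes and for 49.8% of all genes.

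Direction counts depended on the scaling between libraries. With upper-quartile scaling in place of TMM, 6 of the genes passed as higher and 7 as lower, and among all genes called 40.5% were higher instead of 54.5%. The counts also depended on single libraries: 7 genes were higher and 1 was lower without PARGi replicate 2, 8 and 1 without PARGi replicate 3, 8 and 4 without DMSO replicate 3, and 10 and 3 without DMSO replicate 1. The genes that passed with the same direction under all 13 alternative analyses were HK1, HK2, PFKP, EPAS1, P4HA1 and P4HA2, and each of these 6 was higher in PARGi. The other 12 called genes kept their direction under the 13 alternatives but lost the call under at least 1 of them. In bulk RNA, fewer cells expressing a gene and less of its RNA per cell cannot be told apart.

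**Figure D1:**
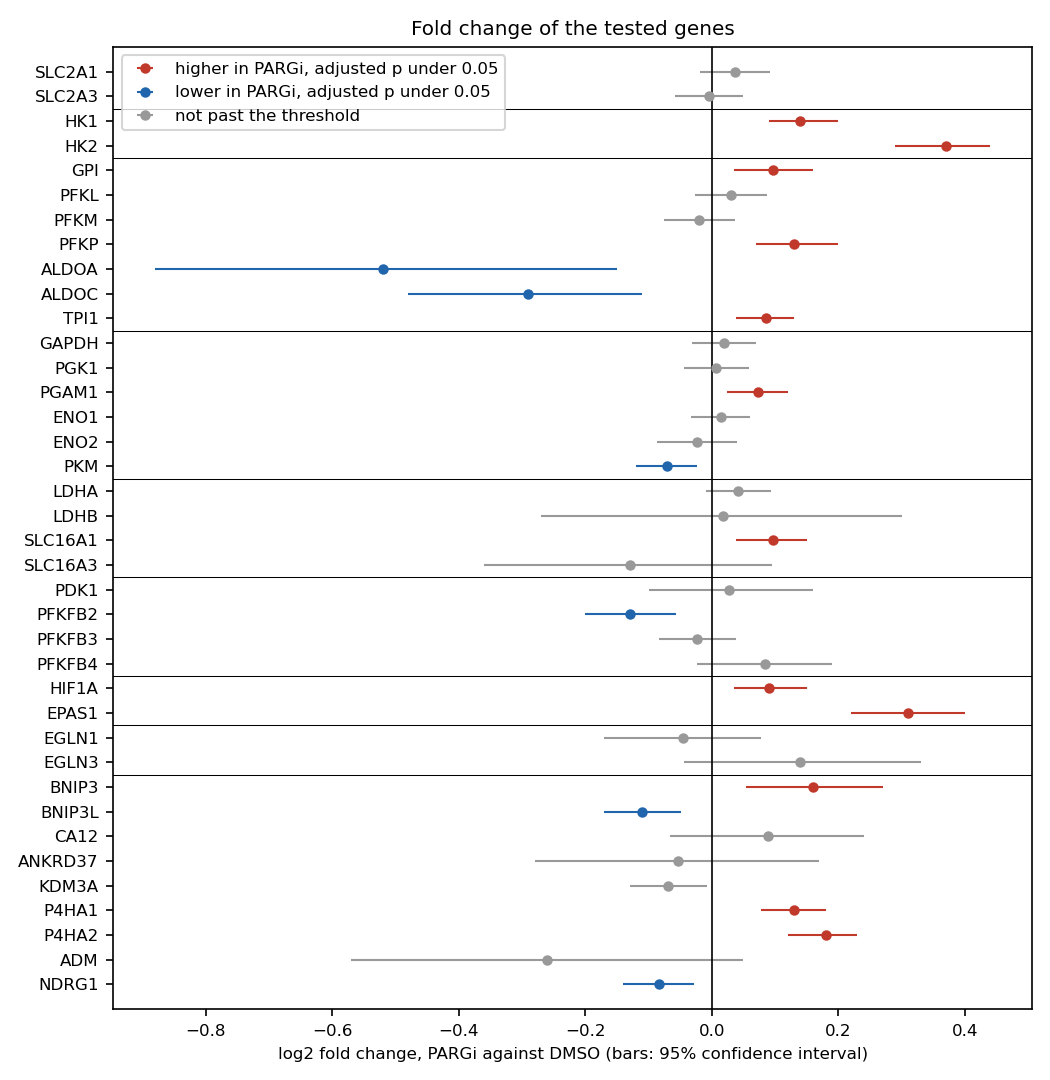
Log2 fold change (x axis, PARGi against DMSO, n = 3 libraries per group) of the 38 tested genes, ordered by role from glucose transport at the top to HIF targets at the bottom; points are edgeR estimates, bars 95% confidence intervals, red is higher, blue is lower and grey did not pass the test. HK2 at 0.37 and EPAS1 at 0.31 lie farthest to the right. ALDOA, whose counts are uncertain, lies farthest to the left at -0.52, and most other points lie near 0.

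The libraries held 60286931 to 80605145 counts each. Libraries of 1 group differed by more than sampling noise (chi-square per degree of freedom 2.27 to 6.11), so none was a copy of another. Of 7 markers of mesenchymal and osteosarcoma cells, 5 had at least 1 CPM, and NT5E and TWIST1 were near 0; the summed level was 8383 to 8971 CPM in DMSO against 8524 to 8573 in PARGi, and most of it came from COL1A1, VIM and SPARC. Within this list CD44 was higher (log2 fold change 0.46, edgeR adjusted p = 1.05e-10), RUNX2 and SPARC were lower (-0.27, adjusted p = 4.96e-08, and -0.083, adjusted p = 0.00653), and VIM and COL1A1 did not pass the test. Of 4 epithelial markers 3 reached 1 CPM, and their sum was 27.4 to 28.5 CPM in DMSO against 18.4 to 21.7 CPM in PARGi, with KRT14 lower, CDH1 higher, and EPCAM and KRT5 not past the test. The blood markers summed to 1.17 to 1.4 CPM in DMSO and 1.2 to 1.32 CPM in PARGi, and the endothelial markers to 2.85 to 3.67 and 3.17 to 4.07 CPM. The part of these markers in the results was not tested.

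For a pair of genes the counts may not measure the whole gene. In GENCODE 29, ALDOA shares 82.6% of its main transcript with the exons of AC093512.2, a protein-coding gene model on the same strand, and LDHB shares 64.6% with AC010197.2. How reads in such shared exons were treated is not stated. ALDOA had 388 counts in all 6 libraries and AC093512.2 had 700, while LDHB had 677 and AC010197.2 had 3. Levels and differences of ALDOA and LDHB are therefore uncertain, and a low count from shared reads and a low expression cannot be told apart. GPI shares 12.9% of its main transcript with AC092073.1, which had 0 counts. At GAPDH an overlap on the opposite strand left little trace: AC006064.4 lies wholly inside GAPDH exons in antisense and had 356 counts against 987242 for GAPDH. Some low-count genes lie opposite more abundant ones. SLC16A3, with 1267 counts, shares 9.98% of its main transcript with CSNK1D, which had 109264. ANKRD37, with 1124 counts, shares 37.6% with UFSP2, which had 9732. The effect of these overlaps on SLC16A3 and ANKRD37 was not tested. Pseudogenes named after a listed gene, such as the 65 of GAPDH and the 44 of BNIP3, held between 0 and 1.48% of its counts, the highest share being that of LDHB.

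The levels spanned a wide range. Per kilobase of main transcript, GAPDH stood first in DMSO at 1259.6 ± 37.4 CPM per kb (SD, n = 3), followed by PKM at 1050.4 ± 22.9, ENO1 at 822 ± 17.6, TPI1 at 500.3 ± 0.718 and LDHA at 281 ± 8.13 CPM per kb. These are enzymes of the lower pathway and its lactate end, with the triose isomerase of the upper pathway among them. HIF1A, which encodes the alpha subunit of HIF-1, had 63.7 ± 1.74 CPM per kb and EPAS1, which encodes that of HIF-2, had 4.2 ± 0.184. The glucose carrier genes SLC2A1 and SLC2A3 had 36.7 ± 0.84 and 29.1 ± 0.509 CPM per kb, and SLC2A3 and PFKM (29 ± 0.404) lay within 1 SD of each other. Genes that low oxygen is known to switch on were spread over the range. LDHA and SLC2A1 stood high, as did P4HA1 at 39.9 ± 0.15 and BNIP3L at 38.8 ± 1.37 CPM per kb. Others were near the bottom: CA12 at 0.972 ± 0.0769, ADM at 0.759 ± 0.0937, PDK1 at 0.678 ± 0.0388 and SLC16A3 at 0.66 ± 0.0761 CPM per kb. The place of PDK1 rests on its long main transcript of 14193 bases. Before division by length it had 9.62 ± 0.551 CPM in DMSO, against 6.23 ± 0.493 for CA12.

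CA9, a cell-surface carbonic anhydrase often used as a marker of hypoxia, was close to absent. Its counts were 2, 0 and 0 in the DMSO libraries and 1, 1 and 1 in the PARGi libraries, 5 in all, and it was not tested. At this depth no difference between the groups was detectable. ARHGEF39, which overlaps 39.7% of its main transcript on the opposite strand, had 14268 counts.

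**Figure D2:**
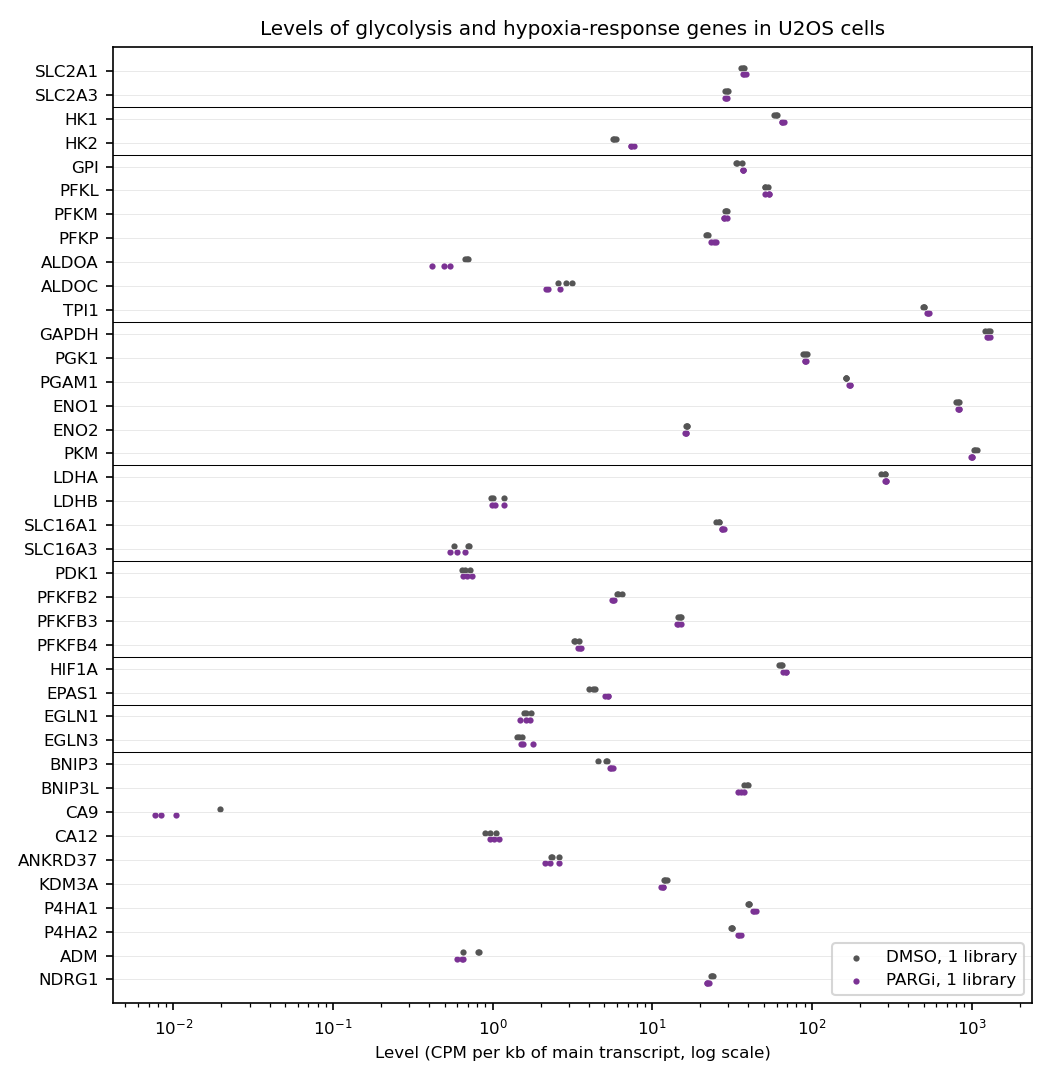
Level of each of the 39 genes in each library (x axis, CPM per kilobase of main transcript, log scale), grouped by role; grey points are the 3 DMSO libraries and purple points the 3 PARGi libraries, and the 2 DMSO libraries in which CA9 had 0 counts cannot be drawn. The enzymes of the lower pathway other than ENO2 (16.4 in DMSO) lie toward the right, with GAPDH at 1259.6 in DMSO. The purple points of HK2 and EPAS1 stand to the right of the grey ones.

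HIF binds DNA at a short core, ACGTG or GCGTG, and the first of these is also the centre of CACGTG, the E-box bound by MYC and its partners. These letters were searched on both strands in the 250 bases upstream of each RefSeq gene start (GRCh38.p14). A start was listed for 34 of the 39 genes, and not for SLC2A3, SLC16A1, PFKFB2, BNIP3L and NDRG1. At least 1 ACGTG or GCGTG lay in the window of 22 of the 34 genes (64.7%), of 43.1% of all 27305 windows and of 55.0% of the 13014 windows of genes tested here. Counted whether or not the other core was present, ACGTG was in 38.2% of the 34 against 22.5% of the windows of tested genes. GCGTG was in 38.2% against 43.3%, and CACGTG in 14.7% against 8.44%. A CACGTG holds ACGTG on each strand and counts as 2 matches. Among the genes that were higher in PARGi, 6 of 11 windows held a match, among those that did not pass the test 13 of 19, and among those that were lower 2 of 3. A match describes letters, not a bound site.

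The sequences shown are those of the genes called under every alternative that hold a match (HK2, EPAS1 and P4HA1) and of the 3 genes with the most matches (BNIP3 with 6, ALDOC and LDHA with 5 each). They are RefSeq sequences on GRCh38.p14, written 5′ to 3′ on the strand of the gene, with ACGTG or GCGTG, or their reverse complements CACGT and CACGC, in capitals. The whole window is given for EPAS1 (chr2:46297157-46297406, plus strand) and BNIP3 (chr10:131981924-131982173, minus strand). GENCODE, whose gene starts differ from those of RefSeq, annotates 5 bases of the EPAS1 window and 12 of the BNIP3 window as transcribed leader, and the EPAS1 window lies inside the span of that gene. For the others, with 108 to 250 such bases, only 30 bases around each match or run of matches are given. These are HK2 at chr2:74833885-74833914 and chr2:74834063-74834092 (plus strand), P4HA1 at chr10:73096936-73096965 (minus), LDHA at chr11:18394366-18394395 and chr11:18394470-18394499 (plus), and ALDOC at chr17:28577116-28577145, chr17:28576987-28577016 and chr17:28576915-28576944 (minus).
EPAS1 window: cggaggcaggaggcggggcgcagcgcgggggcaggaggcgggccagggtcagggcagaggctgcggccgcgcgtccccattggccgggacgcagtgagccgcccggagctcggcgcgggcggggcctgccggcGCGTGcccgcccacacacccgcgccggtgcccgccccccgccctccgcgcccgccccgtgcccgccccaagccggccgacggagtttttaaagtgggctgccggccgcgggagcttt
BNIP3 window: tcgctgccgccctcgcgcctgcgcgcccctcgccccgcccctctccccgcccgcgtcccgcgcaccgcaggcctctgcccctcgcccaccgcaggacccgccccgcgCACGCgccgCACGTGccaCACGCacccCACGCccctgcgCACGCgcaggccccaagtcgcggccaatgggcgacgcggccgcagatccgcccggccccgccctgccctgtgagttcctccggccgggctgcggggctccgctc
HK2, first match: tagccacggaccaCACGTcccatctcaggc
HK2, run of matches: agccaatggGCGTGcgCACGTcactgatcc
P4HA1: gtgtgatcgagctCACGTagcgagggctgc
LDHA, first run: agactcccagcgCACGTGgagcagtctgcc
LDHA, next run: gactcaCACGTGggttcccgCACGTccgcc
ALDOC, first run: aagtgcccggCACGTGgtaaagggattgtg
ALDOC, single match: cccgcctctgaggGCGTGgtcttgccccgg
ALDOC, last run: aggcCACGCccccggaggagtCACGTagct

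The matches of BNIP3 sat in 1 dense run, from 143 to 100 bases upstream of its RefSeq start, and those of HK2 were split between a single match 229 bases upstream and a pair at 55 to 44 bases. The 6 genes with printed sequence did not move alike in PARGi: HK2, EPAS1, P4HA1 and BNIP3 were higher, ALDOC was lower, and LDHA did not pass the test.

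Neither glucose carrier gene passed the test. SLC2A1 encodes GLUT1, the basal glucose carrier and a classic HIF target, and SLC2A3 encodes GLUT3, a carrier of higher affinity. SLC2A1 had 131, 137 and 136 CPM in the DMSO libraries and 141, 137 and 136 CPM in the PARGi libraries, and the groups overlapped. Its log2 fold change was 0.037 ± 0.027 (SE, edgeR adjusted p = 0.357), and the 95% confidence interval ran from -1.27% to 6.56%. SLC2A3 had 114 ± 1.99 CPM in DMSO against 114 ± 1.22 in PARGi (SD, n = 3), with a log2 fold change of -0.0046.

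Both hexokinase genes were higher in PARGi. Hexokinases phosphorylate glucose and so trap it in the cell; HK1 is the widely expressed form, and HK2 is the form that many tumours and hypoxic cells induce. HK2 (ENSG00000159399.10, chr2:74833981-74893359, plus strand) had 33.2, 32.7 and 34.2 CPM in the DMSO libraries and 42.3, 42.3 and 44.4 CPM in the PARGi libraries. Every PARGi library lay above every DMSO library. HK2 rose by 28.9% (95% confidence interval 22.6% to 35.5%), a log2 fold change of 0.37 ± 0.035 (SE, edgeR adjusted p = 2.88e-08), the largest rise among the 38 tested genes. Among all genes called higher, 14.9% had a larger log2 fold change than HK2.

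HK1 (ENSG00000156515.24, chr10:69269984-69401884, plus strand) was the more abundant hexokinase transcript, at 59.4 ± 1.55 CPM per kb in DMSO against 5.78 ± 0.14 for HK2. It had 218, 208 and 216 CPM in the DMSO libraries and 234, 240.3 and 235 CPM in the PARGi libraries, with no overlap. Its log2 fold change was 0.14 ± 0.026 (SE, edgeR adjusted p = 0.000195), a rise of 10.5%.

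In the upper part of the pathway, from GPI to TPI1, GPI, PFKP and TPI1 were higher, ALDOA and ALDOC were lower, and PFKL and PFKM did not pass the test. PFKP, PFKL and PFKM encode the platelet, liver and muscle subunits of phosphofructokinase, the committed step of glycolysis. PFKP (ENSG00000067057.18, chr10:3066333-3137712, plus strand) had 58.5, 57.3 and 59.3 CPM in the DMSO libraries and 66.2, 64.5 and 61.7 CPM in the PARGi libraries. The groups did not overlap, and PFKP rose by 9.73% (log2 fold change 0.13 ± 0.031, edgeR adjusted p = 0.00246). PFKL, the most abundant subunit per kilobase, had a log2 fold change of 0.031 (149.9 ± 3.72 against 153 ± 4.54 CPM), and PFKM one of -0.02 (93.4 ± 1.3 against 92.1 ± 2.15 CPM).

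GPI, which isomerises the glucose phosphate made by hexokinase, had 139.5, 154 and 142 CPM in the DMSO libraries and 155, 155 and 156 CPM in the PARGi libraries. The groups did not overlap, although DMSO replicate 2 lay close to the PARGi libraries. GPI rose by 6.99% (log2 fold change 0.097 ± 0.03, edgeR adjusted p = 0.0206). The GPI call was lost with upper-quartile scaling (adjusted p = 0.089) and without any 1 of DMSO replicates 1 and 3 or PARGi replicates 1, 2 and 3 (adjusted p from 0.0569 to 0.151). TPI1, which interconverts the triose phosphates, had 615, 616 and 617 CPM in the DMSO libraries and 665, 652 and 644 CPM in the PARGi libraries. No TPI1 value overlapped, and the gene rose by 6.15% (log2 fold change 0.086 ± 0.023, edgeR adjusted p = 0.00777). The TPI1 call was lost with upper-quartile scaling (adjusted p = 0.0677) and without PARGi replicate 1 (adjusted p = 0.0548).

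The aldolases split the sugar bisphosphate into trioses; ALDOC is the form best known from brain, and ALDOA the form of muscle and most other tissues. ALDOC had 6.22, 5.72 and 5.08 CPM in the DMSO libraries and 5.22, 4.3 and 4.43 CPM in the PARGi libraries. The groups overlapped, since DMSO replicate 3 lay below PARGi replicate 1. ALDOC fell by 18.3% (log2 fold change -0.29 ± 0.09, edgeR adjusted p = 0.0198), and the call was lost without DMSO replicate 1 or PARGi replicates 2 or 3 (adjusted p from 0.0942 to 0.125). ALDOA, whose level is uncertain, had 1.13, 1.08 and 1.1 CPM in the DMSO libraries and 0.867, 0.798 and 0.671 CPM in the PARGi libraries. The groups did not overlap, and the log2 fold change was -0.52 ± 0.18 (edgeR adjusted p = 0.034). The ALDOA call was lost with DESeq2 (adjusted p = 0.0909) and without any 1 library other than PARGi replicate 1 (adjusted p from 0.055 to 0.155).

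**Figure D3:**
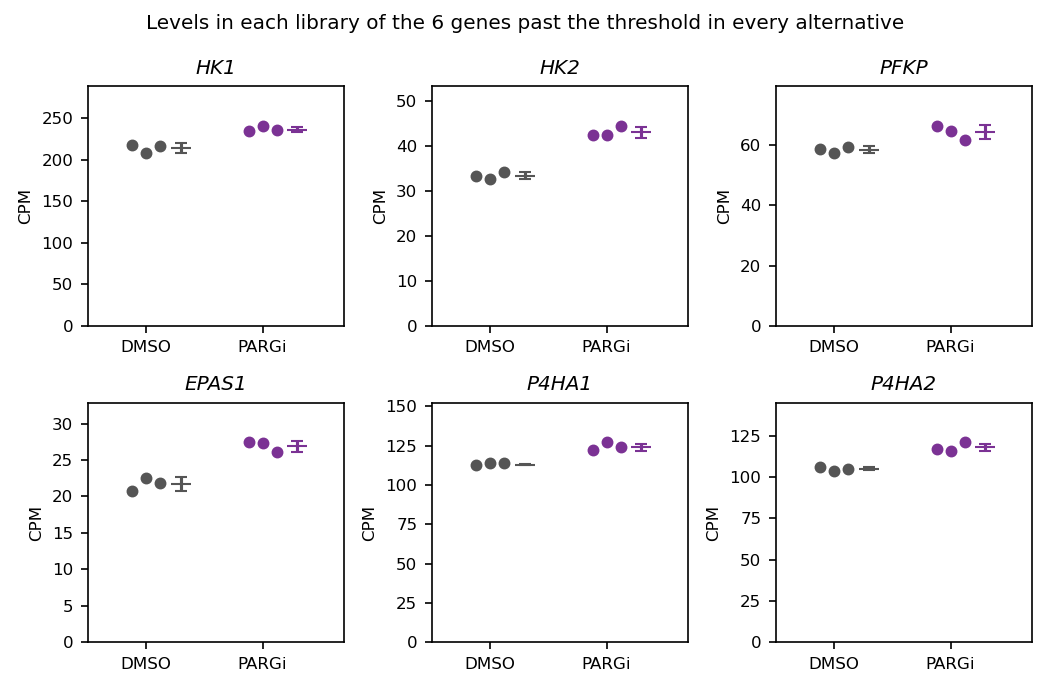
CPM in each library (y axes, each from 0) of the 6 genes that passed the test under all 13 alternatives; points are libraries, horizontal marks group means and bars 1 SD (n = 3). In each panel the 3 PARGi points lie above the 3 DMSO points, with the widest relative gap for HK2 (33.4 against 43 CPM) and EPAS1 (21.7 against 26.9 CPM).

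Of the 6 genes of the lower pathway, which yields the ATP, PGAM1 was higher, PKM was lower, and GAPDH, PGK1, ENO1 and ENO2 did not pass the test. PGAM1, a phosphoglycerate mutase, had 301, 301 and 298 CPM in the DMSO libraries and 317, 313 and 317 CPM in the PARGi libraries. These groups did not overlap, and PGAM1 rose by 5.16% (log2 fold change 0.073 ± 0.023, edgeR adjusted p = 0.0255). The PGAM1 call was lost with upper-quartile scaling (adjusted p = 0.173), with the replicate number as a block (adjusted p = 0.0527), and without any 1 of DMSO replicate 1 or PARGi replicates 1, 2 and 3 (adjusted p from 0.0565 to 0.105).

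PKM, which encodes the pyruvate kinase of most tissues, was the listed gene with the most counts. It had 2799, 2841 and 2921 CPM in the DMSO libraries and 2688, 2741 and 2723 CPM in the PARGi libraries, with no overlap. PKM fell by 4.78% (log2 fold change -0.071 ± 0.023, edgeR adjusted p = 0.0241), and the call was lost without DMSO replicate 3 or any 1 PARGi replicate (adjusted p from 0.0521 to 0.0917). The counts do not separate the M1 and M2 splice forms. GAPDH and ENO1, often taken as reference genes, had log2 fold changes of 0.019 (95% confidence interval -0.032 to 0.07) and 0.014 (-0.033 to 0.061). PGK1 had one of 0.0073 (-0.044 to 0.059) and ENO2, the neuronal enolase, one of -0.023 (-0.086 to 0.04). The signs of GAPDH, PGK1 and ENO1 were negative with upper-quartile scaling.

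At the lactate end, SLC16A1 was higher and LDHA, LDHB and SLC16A3 did not pass the test. LDHA reduces pyruvate to lactate and is among the best known HIF targets. It had 689, 693 and 657 CPM in the DMSO libraries and 701, 693 and 704 CPM in the PARGi libraries. The groups did not overlap, but only barely: DMSO replicate 2 and PARGi replicate 2 were both 693 CPM when rounded. The difference was small, with a log2 fold change of 0.042 ± 0.025 (edgeR adjusted p = 0.238). Its 95% confidence interval ran from -0.623% to 6.66%. SLC16A1 encodes MCT1, a lactate carrier that works in both directions, and had 115, 114 and 109 CPM in the DMSO libraries and 119.7, 123 and 119 CPM in the PARGi libraries. Its groups did not overlap, and SLC16A1 rose by 6.87% (log2 fold change 0.096 ± 0.028, edgeR adjusted p = 0.0127). The SLC16A1 call was lost with upper-quartile scaling (adjusted p = 0.0717), without DMSO replicate 3 (0.0576) and without PARGi replicate 2 (0.0883). SLC16A3 encodes MCT4, the lactate exporter that HIF induces, and was low, at 3.19 ± 0.368 against 2.91 ± 0.327 CPM (log2 fold change -0.13). LDHB, whose level is uncertain, had 1.62 ± 0.166 and 1.64 ± 0.143 CPM.

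Of the 4 genes that steer the flow, PFKFB2 was lower and PDK1, PFKFB3 and PFKFB4 did not pass the test. PDK1 encodes a kinase that shuts off pyruvate dehydrogenase and so holds pyruvate out of the mitochondria. It had 9.09, 10.2 and 9.58 CPM in the DMSO libraries and 10.5, 9.75 and 9.24 CPM in the PARGi libraries. The groups overlapped, and the log2 fold change was 0.027 ± 0.063 (edgeR adjusted p = 0.806). The PFKFB enzymes make and remove a sugar bisphosphate that activates phosphofructokinase and differs from the one the aldolases split. PFKFB2, the heart form, had 43.5, 46 and 42.7 CPM in the DMSO libraries and 41.1, 40.2 and 39.8 CPM in the PARGi libraries, with no overlap. It fell by 8.4% (log2 fold change -0.13 ± 0.034, edgeR adjusted p = 0.00837), and the call was lost without DMSO replicate 2 (adjusted p = 0.0556) or PARGi replicate 3 (0.0545). PFKFB3, the form most often induced in tumours, had a log2 fold change of -0.023 (66.6 ± 1.35 against 65.5 ± 1.77 CPM), and PFKFB4 one of 0.084 (11.9 ± 0.419 against 12.6 ± 0.306 CPM).

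Both HIF alpha subunit genes were higher in PARGi. Control of these subunits by oxygen acts on the protein, which was not measured. EPAS1 (ENSG00000116016.14, chr2:46293667-46386703, plus strand) had 20.7, 22.6 and 21.9 CPM in the DMSO libraries and 27.4, 27.3 and 26.1 CPM in the PARGi libraries. No library overlapped, and EPAS1 rose by 23.9% (95% confidence interval 16.7% to 31.6%; log2 fold change 0.31 ± 0.042, edgeR adjusted p = 5.59e-06). HIF1A was the more abundant of the pair per kilobase and had 249.8, 256 and 242 CPM in the DMSO libraries and 257, 271 and 269 CPM in the PARGi libraries. Its groups did not overlap, but PARGi replicate 1 lay just above DMSO replicate 2. HIF1A rose by 6.5% (log2 fold change 0.091 ± 0.027, edgeR adjusted p = 0.0162). The HIF1A call was lost with upper-quartile scaling (adjusted p = 0.0901) and without DMSO replicate 3 or PARGi replicates 2 or 3 (adjusted p from 0.0522 to 0.11).

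The oxygen-sensing prolyl hydroxylases EGLN1 and EGLN3, which mark HIF alpha subunits for degradation, did not pass the test. EGLN1 had 11.7 ± 0.609 CPM in DMSO and 11.4 ± 0.803 CPM in PARGi (log2 fold change -0.046). EGLN3, itself a HIF target, had 3.99 ± 0.131 and 4.38 ± 0.422 CPM (log2 fold change 0.14), and its 95% confidence interval ran from -2.99% to 25.4%.

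Of the 10 other HIF targets, P4HA1, P4HA2 and BNIP3 were higher, BNIP3L and NDRG1 were lower, CA12, ANKRD37, KDM3A and ADM did not pass the test, and CA9 was not tested. P4HA1 and P4HA2 encode alpha subunits of the collagen prolyl hydroxylase, which stabilises the collagen triple helix. P4HA2 (ENSG00000072682.20, chr5:132191838-132295315, minus strand) had 106, 104 and 105 CPM in the DMSO libraries and 117, 116 and 121 CPM in the PARGi libraries. The groups did not overlap, and P4HA2 rose by 13% (log2 fold change 0.18 ± 0.026, edgeR adjusted p = 1.89e-05). P4HA1 (ENSG00000122884.13, chr10:73007217-73096974, minus strand) had 113, 114 and 114 CPM in the DMSO libraries and 122, 127 and 124 CPM in the PARGi libraries. It rose by 9.42% with no overlap (log2 fold change 0.13 ± 0.026, edgeR adjusted p = 0.000521).

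The related mitophagy receptors BNIP3 and BNIP3L moved in opposite directions. BNIP3 had 14.9, 14.7 and 13 CPM in the DMSO libraries and 15.6, 15.7 and 16.3 CPM in the PARGi libraries, with no overlap. It rose by 12% (log2 fold change 0.16 ± 0.053, edgeR adjusted p = 0.0257). The BNIP3 call was lost with DESeq2 (adjusted p = 0.0562), with upper-quartile scaling (0.0585), and without DMSO replicate 3 or PARGi replicates 2 or 3 (from 0.0591 to 0.179). BNIP3L, also called NIX, had 142, 144 and 135 CPM in the DMSO libraries and 135, 125 and 129 CPM in the PARGi libraries. The groups overlapped where DMSO replicate 3 met PARGi replicate 1. BNIP3L fell by 7.37% (log2 fold change -0.11 ± 0.03, edgeR adjusted p = 0.00867), and the call was lost without PARGi replicate 2 (adjusted p = 0.0936).

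NDRG1 encodes a stress-responsive protein that hypoxia and iron depletion induce. It had 89.6, 87.8 and 89.1 CPM in the DMSO libraries and 85.5, 83.2 and 82.9 CPM in the PARGi libraries, with no overlap. NDRG1 fell by 5.62% (log2 fold change -0.083 ± 0.027, edgeR adjusted p = 0.0244). The NDRG1 call was lost with no filter on low counts (adjusted p = 0.0699) and without DMSO replicate 1 or PARGi replicates 2 or 3 (from 0.0708 to 0.12). KDM3A, a histone demethylase induced by HIF, had 59.6 ± 1.34 and 56.9 ± 0.876 CPM without overlap and did not pass (log2 fold change -0.069, edgeR adjusted p = 0.0972); it passed as lower with upper-quartile scaling (adjusted p = 0.0258). ADM, the gene of the vasodilator peptide adrenomedullin, had 1.43 ± 0.177 and 1.19 ± 0.0529 CPM (log2 fold change -0.26). CA12, a further cell-surface carbonic anhydrase, had 6.23 ± 0.493 and 6.6 ± 0.425 CPM (log2 fold change 0.089). ANKRD37 had 2.76 ± 0.164 and 2.68 ± 0.269 CPM (log2 fold change -0.053).

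Summed over the 17 enzyme genes from hexokinase to lactate dehydrogenase, the groups overlapped. The sum was 9902, 10039 and 9846 CPM in the DMSO libraries and 10032, 9933 and 9935 CPM in the PARGi libraries. The DMSO mean was 9929 ± 99.6 CPM and the PARGi mean 9967 ± 56.7 CPM (SD, n = 3), a difference of 0.381% (exact two-sided permutation test, p = 0.6, where 3 against 3 libraries cannot give less than 0.1). These 17 genes took 0.986% to 1.01% of all counts in each library. They include ALDOA and LDHB, whose levels are uncertain. Without them the sum of 15 genes was 9926 ± 99.6 CPM in DMSO against 9964 ± 56.7 in PARGi. This was a difference of 0.384% (exact two-sided permutation test, p = 0.6). The 10 HIF targets summed to 531.3 ± 6.47 CPM in DMSO against 539.2 ± 3.58 in PARGi, a difference of 1.49% (exact two-sided permutation test, p = 0.2), and the groups overlapped. The signs of the 17-gene sum and of the HIF target sum were negative with upper-quartile scaling, at -1.33% and -0.237%. That of the 17-gene sum was negative also without DMSO replicate 3 (-0.0378%).

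Within families of related genes, the make-up of the transcript pool was compared as the share of each gene in the summed level per kilobase, a measure that does not depend on the scaling between libraries. For single genes, the groups did not overlap for 38.0% of all genes tested and for 49.8% at 10 CPM or more. Of 16 shares in 12 families, 6 had groups that did not overlap, a proportion no higher than that of single genes. Each of these 6 reached the smallest p the exact two-sided permutation test allows (0.1), and after adjustment over the 16 shares the p was 0.267. HK2 made up 8.67%, 8.94% and 9% of the hexokinase level in the DMSO libraries and 10.2%, 9.91% and 10.5% in the PARGi libraries. EPAS1 made up 5.91%, 6.27% and 6.41% of the HIF alpha level in DMSO and 7.49%, 7.11% and 6.85% in PARGi. HK2 and EPAS1 were the less abundant form of their families in every library.

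PFKP went from 21.5% ± 0.249 to 22.9% ± 0.431 of the phosphofructokinase level (SD, n = 3). BNIP3 went from 11.3% ± 0.425 to 13.4% ± 0.539 of the BNIP3 and BNIP3L level, a difference of 2.04 percentage points. In the PFKFB family the share of PFKFB2 was 25.5% ± 1.12 in DMSO and 23.9% ± 0.712 in PARGi, and that of PFKFB4 was 13.6% ± 0.385 and 14.8% ± 0.217. Among the shares whose groups overlapped were those of the carrier genes, SLC2A1 with 55.8% ± 0.77 and 56.5% ± 0.363 and SLC16A1 with 97.5% ± 0.313 and 97.9% ± 0.202. LDHA took 99.6% of the lactate dehydrogenase level in both groups, a figure that rests on the uncertain level of LDHB.

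**Figure D4:**
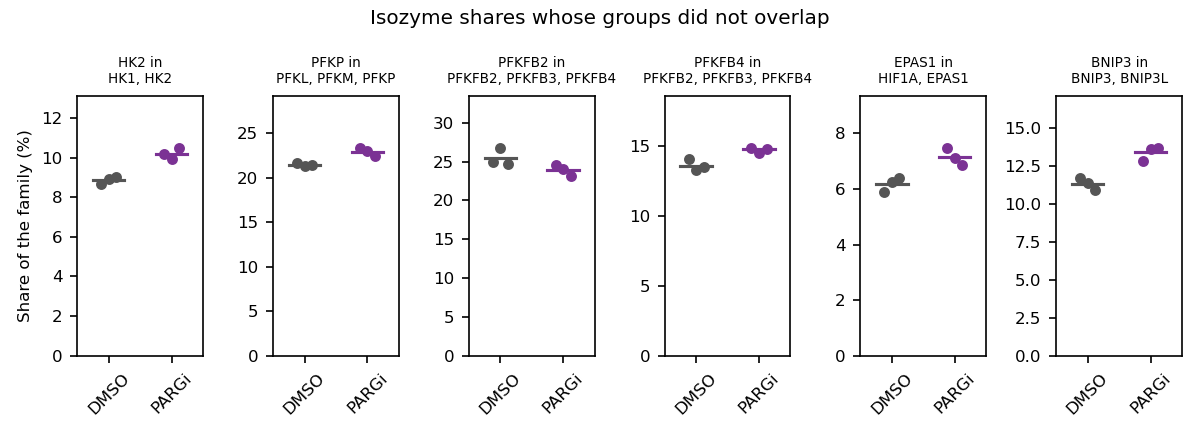
Share of a gene in the summed CPM per kilobase of its family (y axes, percent, each from 0). Drawn are the 6 of 16 shares whose groups did not overlap. Points are libraries and horizontal lines group means (n = 3). The shares of HK2, PFKP, PFKFB4, EPAS1 and BNIP3 are larger in the 3 PARGi libraries and that of PFKFB2 is smaller.

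Genes around the pathway were read from 8 further lists holding 98 genes, of which 85 were tested, 24 were higher and 20 were lower (28.2% and 23.5%, against 13.2% and 11.0% of all genes tested). At 10 CPM or more, 24 of 67 were higher and 17 were lower (35.8% and 25.4%, against 22.1% and 13.6% of all genes). The counts of the single lists are read against the same shares, and each list is small. The lists were chosen with earlier results of these data known, so their shares describe the chosen genes only. The HIF machinery, which holds the partners, inhibitors and ubiquitin ligase subunits of HIF, had 2 of 13 genes higher and 4 lower. Its median log2 fold change was -0.058, and -0.004 over its 11 genes at 10 CPM or more. CITED2, which competes with HIF for its coactivators, went from 64 ± 2.1 to 72.1 ± 2.81 CPM (log2 fold change 0.17, edgeR adjusted p = 0.000355). The genes of those coactivators were lower: EP300 went from 165 ± 7.81 to 151 ± 1.08 CPM (log2 fold change -0.12, edgeR adjusted p = 0.00291) and CREBBP from 169 ± 6.4 to 153 ± 1.37 CPM (-0.14, edgeR adjusted p = 0.000627). In each of these 3 the groups did not overlap.

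A longer list of HIF targets outside the 39 genes split nearly evenly, with 8 of 25 tested genes higher and 7 lower (median log2 fold change 0.024). BHLHE40, a transcriptional repressor of the circadian and hypoxia responses, had 279.7, 292 and 288 CPM in the DMSO libraries and 384, 373 and 386 CPM in the PARGi libraries. Its log2 fold change was 0.41 ± 0.025, beside 0.37 for HK2 (edgeR adjusted p = 1.55e-11). VEGFA, the main angiogenic growth factor, had 95, 89.4 and 103 CPM and then 120.3, 121 and 123 CPM, a log2 fold change of 0.34 ± 0.035 (edgeR adjusted p = 8.85e-08). DDIT4, an inhibitor of the growth kinase mTORC1, had 73.6, 68.5 and 71.5 CPM and then 58.6, 57.4 and 54.6 CPM, a log2 fold change of -0.33 ± 0.033 (edgeR adjusted p = 6.63e-08). The groups of these 3 genes did not overlap. Textbook HIF targets thus include genes that rose, genes that fell, and others, such as SLC2A1, LDHA and PDK1, that did not pass the test.

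In the pentose phosphate pathway, which branches off after hexokinase and makes NADPH and ribose, 4 of 8 tested genes were higher and 0 were lower (median log2 fold change 0.07). All 8 had 10 CPM or more, where 22.1% of all genes were higher and 13.6% lower. PGD, a dehydrogenase that makes NADPH, had 282, 269.5 and 272 CPM in the DMSO libraries and 319.6, 316 and 319.7 CPM in the PARGi libraries (log2 fold change 0.21 ± 0.025, edgeR adjusted p = 6.85e-07). TKT, the transketolase that links the pathway back to glycolysis, went from 270.1 ± 2.65 to 293 ± 6.23 CPM (0.12, edgeR adjusted p = 0.00107). TIGAR, a phosphatase that lowers phosphofructokinase activity, went from 16.4 ± 0.846 to 18.9 ± 1.2 CPM (0.21, edgeR adjusted p = 0.00409); 61.5% of its main transcript is shared with AC008012.1 on the same strand, which had 0 counts. No groups overlapped among these 3 genes.

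For the entry of pyruvate into the mitochondria, 5 of 12 genes were higher and 2 were lower. MPC1, a subunit of the mitochondrial pyruvate carrier, went from 24.2 ± 1.19 to 28.9 ± 0.252 CPM (log2 fold change 0.25, edgeR adjusted p = 4.49e-05). DLAT, the acetyltransferase of pyruvate dehydrogenase, went from 72.3 ± 1.71 to 83.4 ± 1.22 CPM (0.21, edgeR adjusted p = 5.13e-06). PDP1, the phosphatase that switches the complex on, was lower, at 66.5 ± 0.957 and 60.5 ± 1.31 CPM (-0.13, edgeR adjusted p = 0.00124). The remaining carriers had 3 of 10 tested genes higher and 3 lower. SLC2A12 (GLUT12) fell from 91.9 ± 3.61 to 72.1 ± 0.644 CPM (-0.35, edgeR adjusted p = 4.82e-09), while SLC2A6 went from 19.5 ± 0.846 to 22.5 ± 0.722 CPM (0.21, edgeR adjusted p = 0.000872). SLC16A7 (MCT2), a monocarboxylate carrier, went from 9.39 ± 0.471 to 11.4 ± 0.356 CPM (0.28, edgeR adjusted p = 0.000888). The groups of these 6 genes did not overlap.

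In glycogen metabolism and gluconeogenesis, 2 of 7 tested genes were higher and 2 were lower. PYGL, a glycogen phosphorylase, went from 109 ± 1.87 to 129 ± 1.33 CPM (log2 fold change 0.24, edgeR adjusted p = 1.42e-07), and PCK2, the mitochondrial form of the gluconeogenic carboxykinase, from 37.7 ± 1.85 to 43.3 ± 0.938 CPM (0.2, edgeR adjusted p = 0.000252). UGP2, which makes the sugar donor for glycogen synthesis, fell from 288 ± 11.1 to 256 ± 1.49 CPM (-0.17, edgeR adjusted p = 4.5e-05). Tissue-restricted isozymes were scarce: 5 of 11 could be tested, and ENO3, the muscle enolase, was lower, at 11 ± 0.493 and 9.83 ± 0.406 CPM (-0.16, edgeR adjusted p = 0.0435). The ENO3 call was lost with DESeq2, with no filter on low counts and with the replicate block (adjusted p from 0.0546 to 0.101), and without DMSO replicate 2 or PARGi replicates 2 or 3 (from 0.087 to 0.194).

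Among 5 glucose-sensing factors, 0 were higher and MLXIPL, which encodes the carbohydrate-response factor ChREBP, was lower at a very low level. It had 79 counts in all, with 0.272 ± 0.0585 CPM in DMSO against 0.11 ± 0.0478 in PARGi (log2 fold change -1.27, edgeR adjusted p = 0.0201). The MLXIPL call was lost with DESeq2 (adjusted p = 0.0647) and without DMSO replicates 2 or 3 or PARGi replicates 1 or 2 (from 0.0588 to 0.118). TXNIP, a brake on glucose uptake that glucose itself induces, had 4.54, 4.87 and 4 CPM in the DMSO libraries and 3.88, 3.26 and 4.02 CPM in the PARGi libraries. The groups overlapped, and it did not pass the test (-0.26 ± 0.098, edgeR adjusted p = 0.055). It passed as lower with upper-quartile scaling, with no filter on low counts, and without DMSO replicate 3 or PARGi replicate 3 (adjusted p from 0.0158 to 0.0489).

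**Figure D5:**
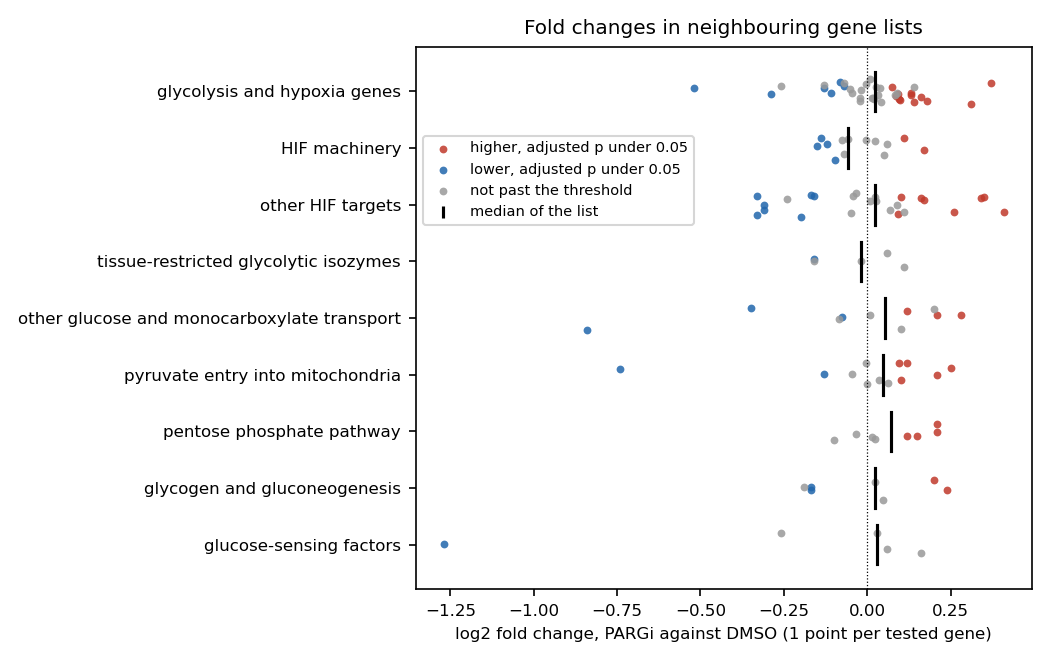
Log2 fold change (x axis, PARGi against DMSO) of each tested gene in the 39-gene list and in the 8 lists around it; each point is 1 gene, red is higher, blue is lower, grey did not pass the test, and the black bar is the median of the list. The medians lie close to 0, with the pentose phosphate list at 0.07 and the HIF machinery at -0.058 (-0.004 over its 11 genes at 10 CPM or more).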

How the data were processed

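The data are raw whole-number counts per gene from 6 libraries, 3 per group, made with a strand-keeping total RNA kit per the labels' protocols. The submitters' processing notes name cutadapt 1.18, STAR 2.7.3a, SAMtools 1.9, deepTools and DESeq2, with the build hg38. The deposited counts are not normalised, name a gene in every line, and sum to 60286931 to 80605145 per library; the annotation release and the treatment of shared reads are not given in the sources used here. Positions and main-transcript lengths come from GENCODE 29, in which 58440 of the 60708 genes were found; promoter sequences come from RefSeq (GRCh38.p14).

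Counts were tested with edgeR 4.0.16 in R 4.3.3 (filterByExpr, TMM, glmQLFit, two-sided glmQLFTest on treatment alone), with Benjamini-Hochberg adjustment over 20409 genes and a threshold of 0.05. The script was tested on simulated counts. Standard errors were derived from the log2 fold change and its F statistic. Sums and shares were compared with exact permutation tests. Intervals are at 95% and cover the spread between libraries. The labels record no molecular identifiers.

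The 13 alternatives of the fit were DESeq2 1.42.0, limma-voom (limma 3.58.1), DESeq2's size factors, upper-quartile scaling, a fit without the low-count filter, at least 10 counts in every library, the replicate number as a block, and each library left out in turn. Shares were also computed from raw counts and, chosen after seeing the data, from the length of all exons joined. The genes and lists were chosen with earlier results of these data known. By rule, all 39 genes are named, library values are given for those past the threshold and for SLC2A1, HK2, LDHA, PDK1, CA9, HIF1A and EPAS1, and each further list gives up to 3 called genes of smallest p, plus TIGAR and TXNIP; 1 gene that this rule selected is not reported here. Genes that overlap these and markers of other cell types are named as well.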

Additional observations from a re-analysis of the deposited data

How the results depend on the processing

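All 18 called genes of the 39 kept their direction under the 13 alternatives, and 12 lost the call under at least 1. With upper-quartile scaling 6 genes were higher, the median log2 fold change turned to -0.0015, and the summed levels turned to -1.33% (enzymes) and -0.237% (HIF targets). Leaving out 1 library gave 7 to 12 genes higher, 1 to 5 lower, a median of 0.0067 to 0.043, and an enzyme sum of -0.0378% to 0.942%. The fewest higher genes, 7, came without PARGi replicate 2, and 1 gene passed as lower without PARGi replicate 2 or 3, against 3 without DMSO replicate 1. Each of these fits had fewer libraries; the cause was not tested further. Of the 20 tested genes that did not pass, 19 passed under no alternative and 8 changed sign under some. With upper-quartile scaling GAPDH stood at -0.0058, PGK1 at -0.017, ENO1 at -0.01 and LDHB at -0.0076, and with no filter SLC2A3 at 0.00013. With 1 library left out, the lowest and highest log2 fold changes were -0.02 and 0.0063 for SLC2A3, -0.0041 and 0.04 for GAPDH, -0.015 and 0.025 for PGK1, -0.0038 and 0.027 for ENO1, -0.059 and 0.098 for LDHB, -0.02 and 0.073 for PDK1, -0.092 and 0.009 for EGLN1, and -0.13 and 0.013 for ANKRD37. Replicate numbers did not pair the libraries: the deviations of same-numbered libraries correlated at -0.00585, 0.0157 and -0.00784 across genes. With the replicate block 4553 genes were called instead of 4951, and 11 of the listed genes were higher and 6 lower. The HK2 share differed by 1.33 percentage points per kilobase, by 1.9 in raw counts and by 1.95 with all exons joined, and that of BNIP3 by 2.04 and, with all exons joined, 1.43. With 3 libraries per group, differences of a few percent were near the limit of detection, and CA9, with 5 counts, could not be assessed.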
